A study of Mus musculus with 2 samples.

Results

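The genes described here are 10 members of the integrated stress response and the unfolded protein response, followed through the cells of the mouse retinal pigment epithelium (RPE) and the tissue behind it. They are Atf4, Ddit3, Trib3, Asns, Chac1, Ppp1r15a, Hspa5, Herpud1, Xbp1 and Dnajb9, chosen by name and matched by symbol to 11 of the 32285 gene rows of the deposited table, Ddit3 having 2. Single-cell RNA sequencing was performed on male C57BL/6J mice 3 months of age, 7 days after 1 µl of PBS (control) or of 100 ng/µl doxorubicin (Dox), which damages DNA, was injected under the retina. The RPE, choroid and sclera of 10 eyes from 5 mice went into 1 library per condition, which leaves no replicates. Both groups were injected, so the effect of injection itself cannot be seen. The drug cannot be told apart from the library or the pool of mice. No test between the conditions was possible, and every 95% interval below covers counting error only.

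The control library held 20381 cells with 117731270 unique molecular identifiers (UMIs, tags that each mark 1 RNA molecule), and the Dox library 15649 cells with 103997248 UMIs. After quality control 20180 and 15426 cells were kept. RPE cells were those with at least 10 UMIs of Rpe65, the retinoid isomerase of the visual cycle. They numbered 1526 of the control and 1630 of the Dox cells, and their median depth was 16013.5 and 18115.5 UMIs. Just outside this limit 32 control and 49 Dox cells had 9 Rpe65 UMIs, and just inside it 34 and 39 cells had 10. Of the 12 RPE markers listed, 11 were at 10 CPM (CPM being a gene's UMIs per 1000000 UMIs of its cell group) or more in both libraries, while Best1 was at 0.532 CPM in control versus 0.673 CPM in Dox. In the RPE-like cluster lay 1326 control and 1407 Dox cells of these. Of the rest, 17 control and 53 Dox cells lay in the fibroblast-like cluster led by Myoc, and 69 and 44 in the melanocyte-like cluster. A further 95 and 109 lay in an unnamed cluster led by Snhg7os. Both libraries shared 441 of their deposited cell barcodes, and 3 of those of RPE cells. RPE cells were also split by Serpina3n, which encodes a secreted protease inhibitor, into Serpina3n-low cells (below 1000 CPM) and Serpina3n-high cells (at or above it). The Serpina3n-high group held 15 control and 208 Dox cells, against 1511 and 1422 Serpina3n-low cells. From 500 to under 1000 CPM there were 20 control and 57 Dox cells, and from 1000 to under 2000 CPM there were 7 and 37. Cdkn1a, the cell cycle inhibitor p21 that responds to DNA damage, was at 47.7 CPM in control RPE and 113.5 CPM in Dox-RPE.

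In the integrated stress response, kinases that sense viral RNA, missing amino acids, missing heme or unfolded protein phosphorylate the translation factor eIF2. Most translation is then lowered, while the mRNA of the transcription factor ATF4 is translated more, and ATF4 switches on genes of amino acid supply and, with CHOP (Ddit3), of cell death. In the unfolded protein response of the endoplasmic reticulum (ER), the sensors PERK, IRE1 and ATF6 raise chaperones and degradation factors, IRE1 by cutting an intron out of the Xbp1 mRNA. Both ATF4 translation and Xbp1 splicing act on the mRNA after it is made, so neither can be read from counts of mRNA molecules.

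The short sequences by which ER stress and ATF4 act on known promoters are shown here for the members that carry them. The 250 bases before the RefSeq start (GRCm38.p6) were searched on both strands, and all 10 members were in that table of 32851 promoters. The C/EBP-ATF composite site TGATGNAA was in 3.452% of all promoters, the unfolded protein response element TGACGTG in 1.65%, the ER stress element (CCAAT, 9 bases, CCACG) in 0.113% and ER stress element II in 0.03%. Matches were present in Hspa5, Herpud1, Asns and Chac1. Each is given 5′ to 3′ on the strand of its gene, with the match in capitals.
Hspa5, ER stress element, chr2:34772020-34772048, plus strand: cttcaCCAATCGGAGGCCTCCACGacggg
Hspa5, unfolded protein response element, chr2:34771922-34771950, plus strand: gggcgtagcaaTGACGTGagttgcggagg
Herpud1, ER stress element II, chr8:94386368-94386396, plus strand: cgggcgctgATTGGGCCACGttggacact
Herpud1, C/EBP-ATF composite site (reverse complement), chr8:94386306-94386335, plus strand: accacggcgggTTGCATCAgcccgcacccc
Asns, C/EBP-ATF composite site, chr6:7693214-7693243, minus strand: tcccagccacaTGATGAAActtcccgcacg
Chac1, C/EBP-ATF composite site (reverse complement), chr2:119351038-119351067, plus strand: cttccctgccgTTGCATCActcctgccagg
The first match of Hspa5 and that of Asns lie within an exon of a transcript that GENCODE vM21 starts further upstream. No match was found in this window of Atf4, Ddit3, Trib3, Ppp1r15a, Xbp1 or Dnajb9, which says only that these letters are not in it.

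RPE cells held less of most members than the other cells of the tissue. Cells with under 10 Rpe65 UMIs were grouped into 10 clusters outside the RPE, called by their markers or leading genes. Below, "the other cells" are the kept cells of these 10 clusters with under 10 Rpe65 UMIs. RPE had the lowest level of 11 cell types in both libraries for Atf4, Ddit3, Ppp1r15a, Hspa5 and Xbp1, and its interval did not overlap that of the type above it for any of these. Beside this, Rpe65 itself was at 236.6 CPM in control versus 340.1 CPM in Dox in the other cells, and at 4966 and 4867 CPM in RPE cells. The 91 control and 78 Dox cells of the RPE-like cluster with under 10 Rpe65 UMIs are in neither group. A list of 16 immediate early and dissociation genes was also lower in RPE cells, where it summed to 5874 CPM in control versus 5003 CPM in Dox. It summed to 55929 and 58065 CPM in the fibroblast-like cells led by Myoc, and to 22086 and 14076 CPM in melanocyte-like cells. The parts of free RNA and of tissue dissociation in these levels were not tested.

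Atf4 (ENSMUSG00000042406, chromosome 15 from 80255184 to 80257541), the central transcription factor of the pathway, was at 90.7 CPM in control RPE and 90.4 CPM in Dox-RPE. It was 3.16-fold higher in the other cells in control and 3.00-fold in Dox. Endothelial-like cells had the highest Atf4 level, with 449.9 and 420.5 CPM, and the fibroblast-like cells led by Cxcl10 came next, with 326.9 and 287.8 CPM and no overlap of intervals. Melanocyte-like cells, the type just above RPE, had 171.0 and 112.0 CPM.

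Ddit3 (ENSMUSG00000025408, chromosome 10 from 127290774 to 127296288), which encodes the pro-death factor CHOP, was at 33.6 CPM in control RPE and 37.0 CPM in Dox-RPE. The other cells had 73.0 and 82.6 CPM. A second gene ID with the symbol Ddit3 (ENSMUSG00000116429) overlaps it on the same strand and held 0 UMIs in all cells, against 14448 for the first, so reads in the shared exons may have gone uncounted and Ddit3 levels are uncertain. In the order of Ddit3 levels over the 11 types, 9 of 10 neighbouring pairs had overlapping intervals in each library, the exception being RPE and the type above it, smooth muscle-like cells at 49.9 and 55.7 CPM.

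Of Trib3, Asns and Chac1, which ATF4 switches on, Asns and Chac1 had few UMIs in RPE and Trib3 just enough to be compared. Trib3 (ENSMUSG00000032715, chromosome 2 from 152337422 to 152344032), a pseudokinase, had 58 UMIs in control RPE (2.20 CPM) and 64 in Dox-RPE (2.05 CPM). Asns (ENSMUSG00000029752, chromosome 6 from 7675169 to 7693254), the enzyme that makes asparagine, had 8 UMIs (0.304 CPM) and 11 UMIs (0.353 CPM). The other cells had 4.07 and 3.93 CPM of Asns, 13.4-fold and 11.1-fold the RPE level. Chac1 (ENSMUSG00000027313, chromosome 2 from 119351229 to 119354381), which breaks down glutathione, had 1 UMI in control RPE and 4 in Dox-RPE. Its level was highest in endothelial-like cells, with 3.51 and 2.22 CPM, and the intervals of all neighbouring types overlapped for these genes.

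Ppp1r15a (ENSMUSG00000040435, chromosome 7 from 45522916 to 45526268) encodes GADD34, the subunit that returns eIF2 to its unphosphorylated form. Among the members with at least 50 UMIs in RPE it differed most between RPE and the rest, with 236.9 CPM in control RPE and 176.6 CPM in Dox-RPE against 2050 and 2070 CPM in the other cells, or 8.65-fold and 11.7-fold more. Smooth muscle-like cells had 3229 and 3041 CPM.

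Hspa5 (ENSMUSG00000026864, chromosome 2 from 34771970 to 34777547), the ER chaperone BiP, was at 320.4 CPM in control RPE and 357.2 CPM in Dox-RPE, and at 690.7 and 780.9 CPM in the other cells. Herpud1 (ENSMUSG00000031770, chromosome 8 from 94386438 to 94395377), an ER membrane protein of protein degradation, was at 93.9 and 95.4 CPM in RPE, where its interval overlapped that of the type above. Macrophage-like cells had the highest Herpud1 level, with 296.4 and 291.0 CPM. Xbp1 (ENSMUSG00000020484, chromosome 11 from 5520659 to 5525893), the target of IRE1, was at 69.0 and 71.4 CPM in RPE and highest in endothelial-like cells, with 257.4 and 214.7 CPM, although in Dox the interval overlapped that of the fibroblast-like cells led by Sfrp4 at 207.2 CPM. Dnajb9 (ENSMUSG00000014905, chromosome 12 from 44205559 to 44210326), a helper of BiP, differed least of these members, with 65.5 and 64.8 CPM in RPE against 86.0 and 86.3 CPM in the other cells.

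**Figure D1:**
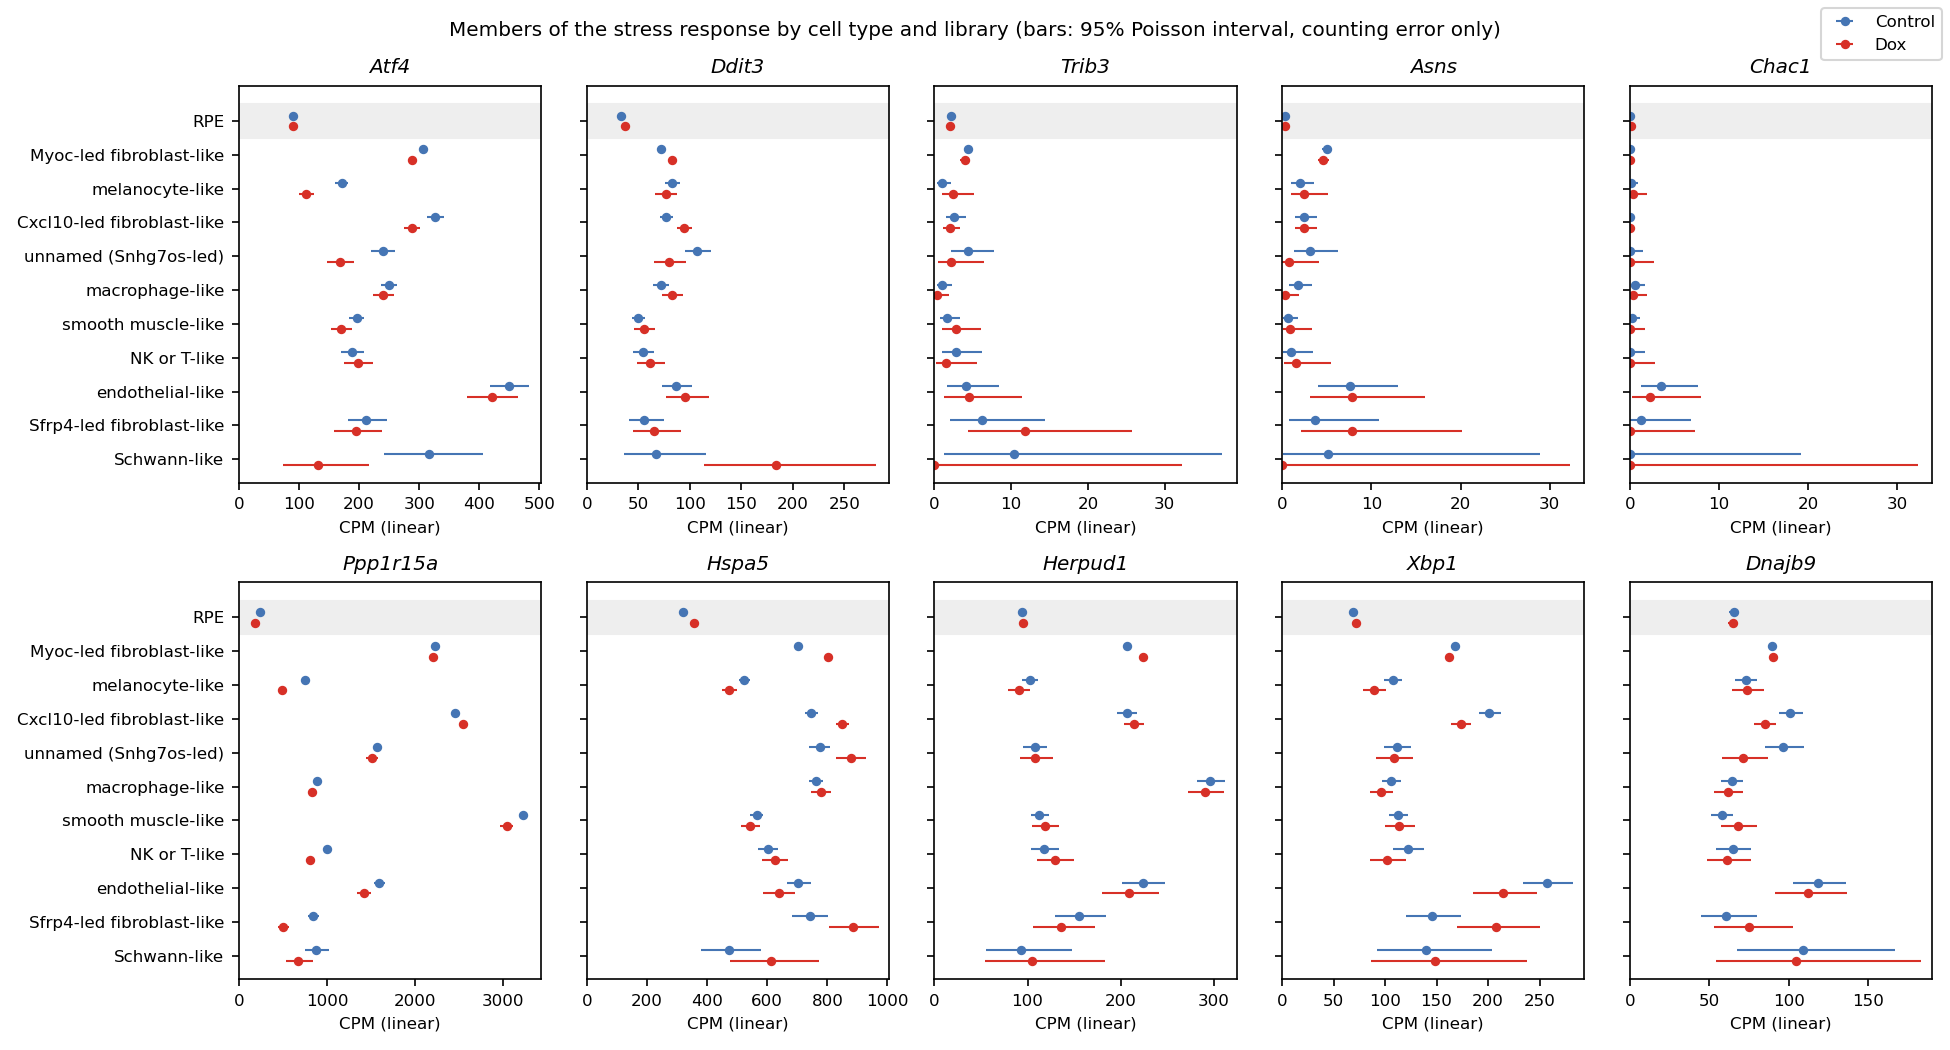
CPM of each member (x axis, linear from 0) in RPE cells (grey band) and 10 other cell types (rows), with control in blue, Dox in red and 95% Poisson intervals. RPE sits at the left of the panels of Atf4, Ddit3, Ppp1r15a, Hspa5 and Xbp1 in both libraries, while Trib3, Asns and Chac1 have wide intervals that overlap between types.

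Over all RPE cells, no member with at least 50 UMIs was past 1.5-fold between the libraries. The paper states that the injected Dox affected only part of the RPE. Ratios of Dox over control, in all or in Serpina3n-low RPE cells, may therefore mix cells that Dox reached with cells it did not. Which cells were reached was not tested, so these ratios do not measure the response of reached cells alone. Of the 8 members with at least 50 UMIs, 0 were at least 1.5-fold higher with Dox and 0 at least 1.5-fold lower, where 1.66% and 4.92% of the 12774 genes with as many UMIs were. The median log2 ratio of Dox over control was 0.0094 over the members and -0.011 over all genes. Of all genes tested, 7.66% had a lower ratio than Ppp1r15a, 83.2% than Ddit3 and 85.8% than Hspa5. For the other members with as many UMIs this share lay between 27.9% (Trib3) and 66.6% (Xbp1). In Serpina3n-low cells the counts were again 0 and 0 of 8, beside 1.05% and 3.87% of 12617 genes. With shares this low, counts of 0 among 8 genes are no result about the members.

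Atf4 had 2386 UMIs in control RPE and 2821 in Dox-RPE, a log2 ratio of -0.0042 (95% interval -0.083 to 0.075). The ratio was 0.02 for Herpud1, 0.05 for Xbp1, -0.02 for Dnajb9 and -0.10 for Trib3, each with an interval that held 0. Over all RPE cells these 5 members did not differ by more than counting error, and for the first 4 of them the intervals lay within -0.11 and 0.14. Hspa5 was slightly higher in Dox-RPE, with 11144 UMIs against 8432 and a log2 ratio of 0.16 (0.12 to 0.20), and was higher by 0.14 (0.098 to 0.18) in Serpina3n-low cells. Among other types Hspa5 was also higher with Dox in the fibroblast-like cells led by Myoc, with a ratio of 0.19 (0.17 to 0.21). The same held for those led by Cxcl10, at 0.19 (0.13 to 0.24), and by Sfrp4, at 0.26 (0.077 to 0.44). In the unnamed cells led by Snhg7os it was 0.18 (0.075 to 0.28). Only melanocyte-like cells were lower beyond counting error, at -0.15 (-0.24 to -0.053). In the remaining types the interval held 0, as in endothelial-like cells at -0.14 (-0.29 to 0.0042). Ddit3 was higher by 0.14 (0.0082 to 0.26) over all RPE cells and by 0.03 (-0.10 to 0.17) in Serpina3n-low cells.

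**Figure D2:**
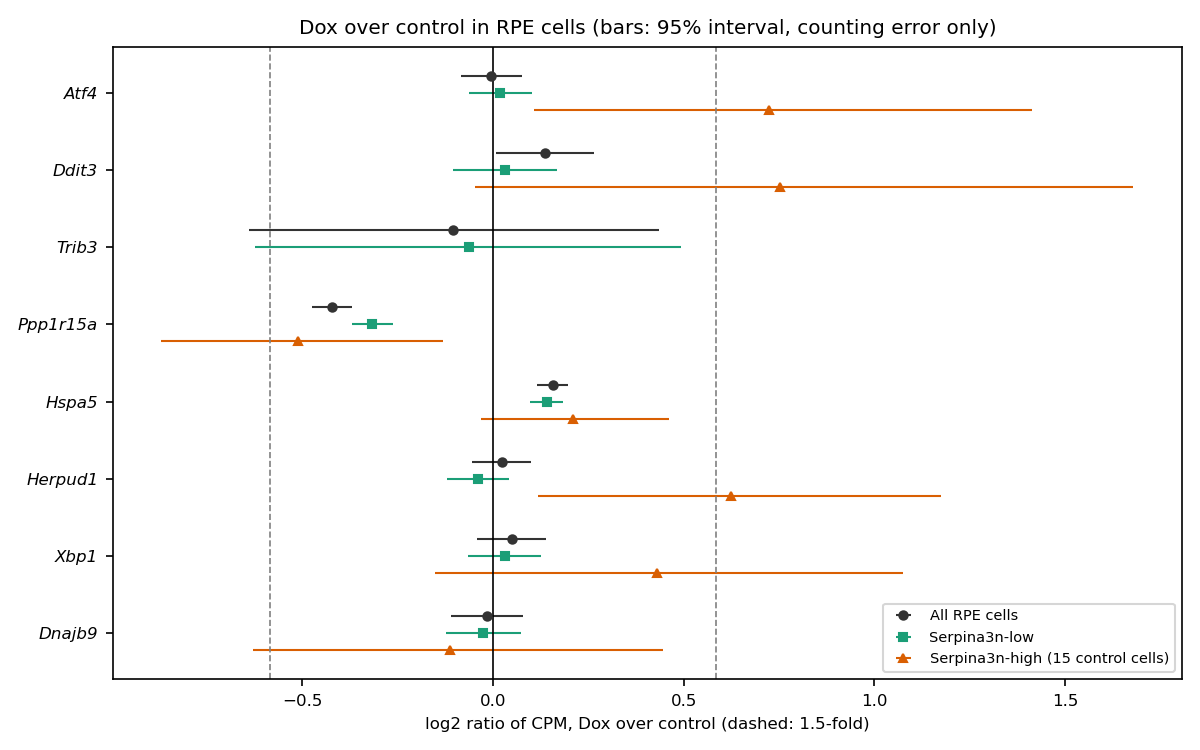
Log2 ratio of CPM, Dox over control (x axis), for 8 members (rows) in all, Serpina3n-low and Serpina3n-high RPE cells, with 95% intervals of counting error and dashed lines at 1.5-fold. Ratios of all and of Serpina3n-low RPE cells lie inside the dashed lines, and Trib3 is not drawn for Serpina3n-high cells, where control had 0 UMIs.

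Over all RPE cells, Ppp1r15a had the ratio furthest from 0 among the members with 50 UMIs, at 236.9 CPM in control RPE and 176.6 CPM in Dox-RPE, a log2 ratio of -0.42 (-0.48 to -0.37). Marker RNA of other types moved with it. Of 9 marker lists of other types, 7 summed to less in Dox-RPE, among them those of macrophages, at 328.8 and 105.6 CPM, and NK or T cells, at 31.1 and 7.69 CPM. The melanocyte list was lower too, at 3135 and 2260 CPM. It holds pigment genes such as Pmel, which the paper reports as lower in RPE cells themselves, so its sum does not measure RNA of other cells alone. In this list Dct was at 1569 and 1033 CPM, Tyr at 196.4 and 202.1 CPM and Gpnmb at 371.5 and 536.3 CPM. The melanocyte list was also lower with Dox in types outside the RPE, such as the fibroblast-like cells led by Myoc, at 2094 and 645 CPM. The part of melanocyte RNA in RPE cells was not tested. The 16 fibroblast markers summed to 2028 CPM in control RPE and 1334 CPM in Dox-RPE, 12 of them being lower, and Dcn (decorin, a matrix protein of fibroblasts) was at 792.1 and 433.1 CPM. No fibroblast marker was at 0 in either, and 11 of the 16 were at 10 CPM or more in both. The paper lists Dcn, Igfbp4, Lum, Apod and Serpinf1 among the markers of an RPE subpopulation. The sum of these markers therefore need not be RNA of fibroblasts. Of the 16 immediate early and dissociation genes, 12 were lower and 3 higher in Dox-RPE by more than counting error, a count for which no share of all genes was taken. Past 1.5-fold were 0 in either direction, beside 1.66% higher and 4.92% lower of all genes. The 16 summed to 5874 CPM in control versus 5003 CPM in Dox. As a percent of the level in the fibroblast-like cells led by Myoc, control RPE had 7.50% of the fibroblast markers and 10.6% of Ppp1r15a, and Dox-RPE had 4.97% and 8.01%. By the same measure control RPE had 10.5% and Dox-RPE 8.62% of the summed immediate early and dissociation genes. RPE had 29.7% and 31.4% of Atf4 and 45.5% and 44.5% of Hspa5. Which of these lists Ppp1r15a goes with was not tested.

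When RPE cells were split at the median of these fibroblast markers over both libraries (210.7 CPM), the cells at or below it had 74.7 CPM of Ppp1r15a in control versus 66.9 CPM in Dox, with a log2 ratio of -0.16 (-0.28 to -0.044). The cells above it had 416.5 and 437.3 CPM, a log2 ratio of 0.07 (0.010 to 0.13). Ppp1r15a was lower with Dox in the first group, higher in the second, and closer between the libraries within each than over all RPE cells. The part of fibroblast RNA, or of the RPE subpopulation for which the paper lists such markers, in the lower level over all RPE cells was not tested beyond this. The cells above the median numbered 874 of 1526 in control and 704 of 1630 in Dox. Depth moved with it too, and Ppp1r15a was at 464.3 and 487.7 CPM in the tertile of RPE cells with the fewest UMIs and at 165.7 and 101.8 CPM in the tertile with the most, where its log2 ratio was -0.70 (-0.79 to -0.61). With RPE cells taken only from the RPE-like cluster, Ppp1r15a was past 1.5-fold, with a log2 ratio of -0.61, and where 5 Rpe65 UMIs sufficed the ratio was -0.09. Atf4 followed the same axis at smaller scale, with 69.0 and 73.0 CPM at or below the median of fibroblast markers and 114.7 and 131.7 CPM above it. Above it the log2 ratio of Atf4 was 0.20 (0.088 to 0.31), that of Ddit3 0.29 (0.10 to 0.48) and that of Xbp1 0.23 (0.089 to 0.36), all further from 0 than that of Ppp1r15a, while at or below it the intervals of these 3 held 0. Hspa5 was higher with Dox on both sides of that median, by 0.23 (0.17 to 0.28) at or below it and 0.20 (0.14 to 0.26) above it. Dnajb9 lay between 64.8 and 66.0 CPM in all 4 groups of this split.

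**Figure D3:**
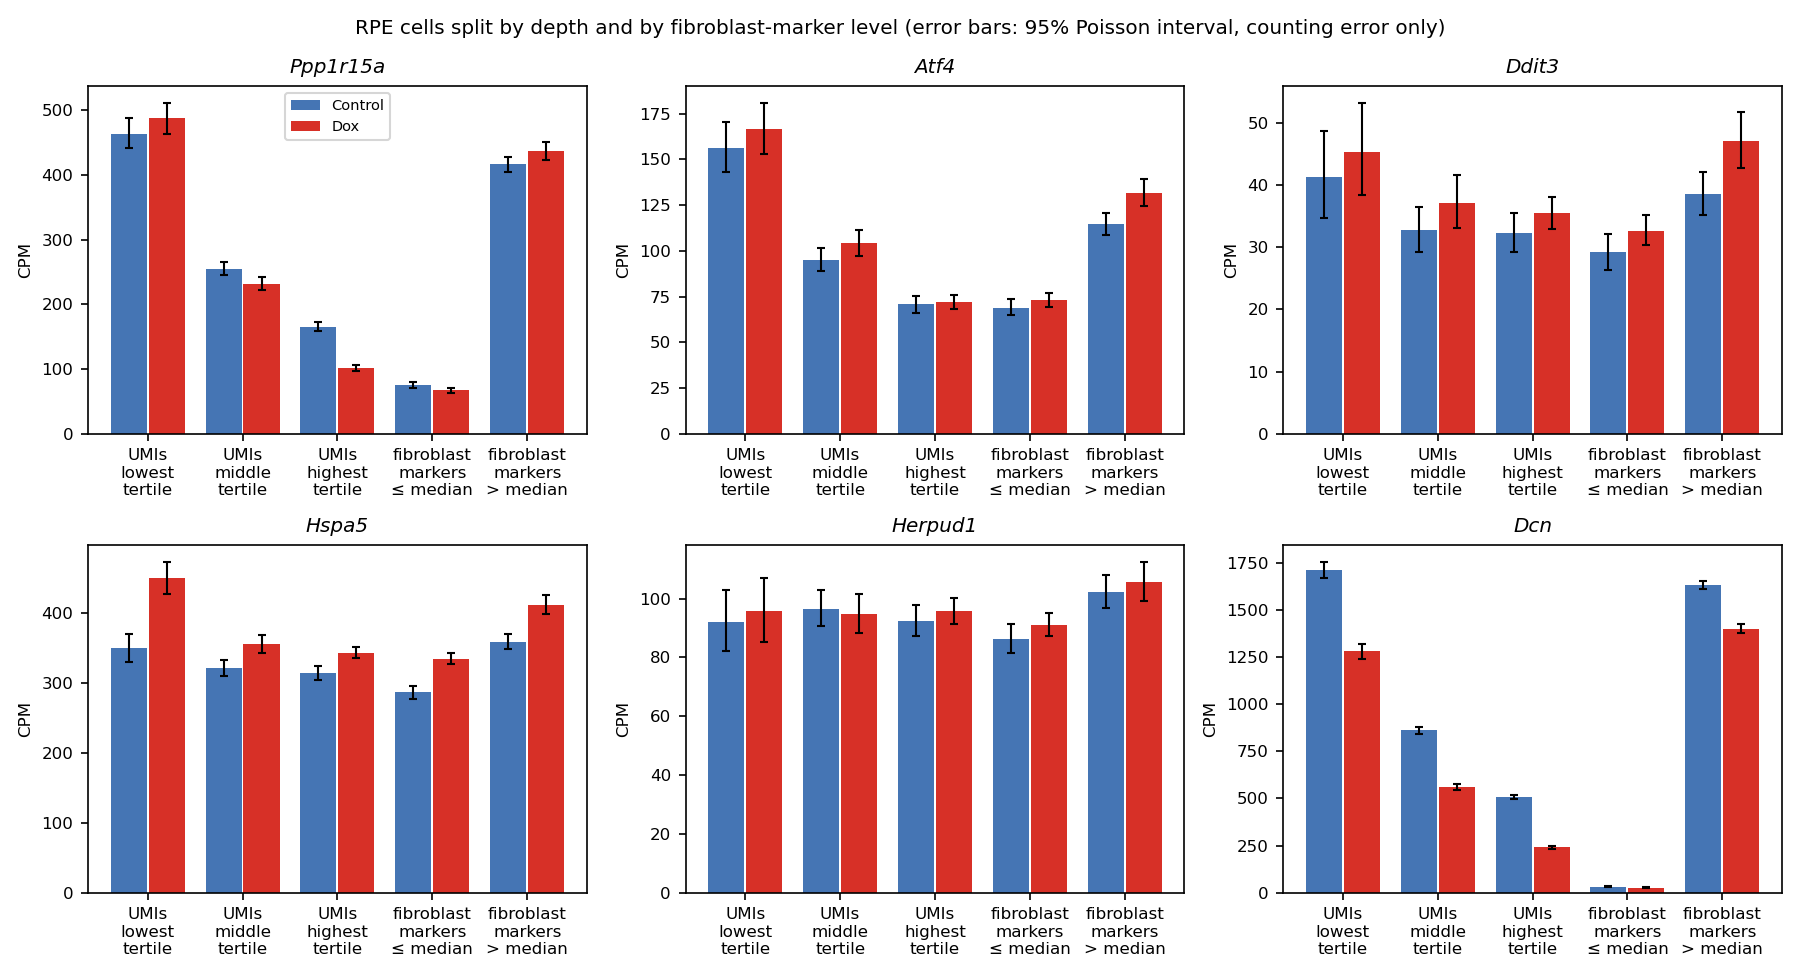
CPM (y axis, linear from 0) of 5 members and of the fibroblast gene Dcn in control (blue) and Dox (red) RPE cells, split into tertiles of UMIs per cell and at the median of the fibroblast markers, with 95% Poisson intervals. Ppp1r15a and Atf4 are lower in deeper cells and in cells with fewer fibroblast markers, Dcn is itself one of the markers that made that split, and Herpud1 stays between 86.4 and 105.8 CPM.

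Within the Dox library, Serpina3n-high cells held more Ddit3 and Herpud1 and less Ppp1r15a than Serpina3n-low cells. Cdkn1a was at 317.8 CPM in these high cells and 69.1 CPM in the low ones, and Rpe65 at 1954 and 5499 CPM. Of the 8 members with at least 50 UMIs, 0 were at least 1.5-fold higher and 1 was at least 1.5-fold lower, beside 4.72% and 20.3% of 11662 genes. The median log2 ratio was 0.07 over the members and -0.18 over all genes, so the CPM of a typical gene was lower in the high cells.

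Ddit3 was at 48.3 CPM (269 UMIs) in Serpina3n-high and 34.5 CPM (884 UMIs) in Serpina3n-low Dox-RPE, a log2 ratio of 0.49 (0.28 to 0.69). Of all genes tested, 94.0% had a lower ratio. Its UMIs were spread over 128 of the 208 high cells, with at most 11 in a cell, and over 566 of the 1422 low cells. The high cells were deeper, with a median of 28244 UMIs against 16608. After each cell was thinned to 2000 UMIs, 7.80% of high cells (95% Clopper-Pearson interval 4.53 to 12.4) and 7.66% of low cells (6.31 to 9.19) had a Ddit3 UMI, and the log2 ratio was 0.08 (-0.73 to 0.80), so that the difference was not detectable at that depth. Among the cells at or below the median of fibroblast markers, where Dcn was at 20.7 CPM in 143 high cells and 27.0 CPM in 783 low cells, Ddit3 was at 47.8 and 29.1 CPM.

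Herpud1 was at 112.3 CPM in Serpina3n-high and 91.8 CPM in Serpina3n-low Dox-RPE, a log2 ratio of 0.29 (0.16 to 0.42), and at 113.5 and 85.9 CPM in cells at or below the median of fibroblast markers. Hspa5 was higher by 0.09 (0.018 to 0.16), but lower with a ratio of -0.071 where RPE cells needed only 5 Rpe65 UMIs. The differences of Herpud1 and Hspa5 were both under 1.5-fold. The ratios of Xbp1 and Dnajb9, each 0.07, had intervals that held 0. Atf4 was lower in the high cells, at 80.3 against 92.6 CPM with a log2 ratio of -0.21 (-0.35 to -0.059), and at 72.9 and 73.0 CPM in cells at or below the median of fibroblast markers. Ppp1r15a was at 108.5 and 191.4 CPM, a log2 ratio of -0.82 (-0.94 to -0.70). The summed fibroblast markers were at 516.0 CPM in the high and 1512 CPM in the low cells, and at or below the median of these markers Ppp1r15a was at 70.7 and 66.0 CPM, a log2 ratio of 0.10 (-0.090 to 0.29). Asns had 7 UMIs in the 208 high cells (1.26 CPM) and 4 UMIs in the 1422 low cells (0.156 CPM), a count too small to pass the limit of 50 UMIs.

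The 15 Serpina3n-high control cells, with 452790 UMIs in all, limit what can be said of Dox against control in this group. Marker RNA differed as well, the fibroblast markers summing to 1910 CPM in these control cells and 516.0 CPM in the Serpina3n-high Dox cells. The melanocyte list was at 6122 and 3695 CPM, and the immediate early and dissociation genes at 4324 and 4336 CPM. The part of these in the ratios of this group was not tested. Of the 7 members with at least 50 UMIs, 3 were at least 1.5-fold higher in Dox and 0 at least 1.5-fold lower, beside 16.5% and 10.9% of 7669 genes, so that many genes passed 1.5-fold at this depth. The Dox cells held 5566224 UMIs, and these 3 passed the UMI limit on their Dox UMIs alone. The 3 were Ddit3, at 28.7 CPM (13 UMIs) in control versus 48.3 CPM in Dox, Atf4, at 48.6 CPM (22 UMIs) and 80.3 CPM, and Herpud1, at 72.9 CPM (33 UMIs) and 112.3 CPM. The interval of the log2 ratio held 0 for Ddit3 (-0.047 to 1.68) but not for Atf4 (0.11 to 1.41) or Herpud1 (0.12 to 1.18). With the limit at 500 CPM of Serpina3n, which takes in more control cells, the log2 ratio of Ddit3 was -0.04 and that of Atf4 was 0.30, and only Herpud1 was past 1.5-fold. Trib3, Asns and Chac1 had 0 UMIs in the control cells, where a limit of 3 counts is 6.63 CPM and the upper end of the Poisson interval 8.15 CPM, and 9, 7 and 2 UMIs in the Dox cells. Within control, 0 of 8 members were at least 1.5-fold higher in Serpina3n-high than in Serpina3n-low cells and 2 were lower, Atf4 by -0.91 (-1.59 to -0.31) and Ppp1r15a by -0.62 (-0.99 to -0.28), beside 10.7% and 30.3% of 11582 genes. Neither sign held in every alternative, since Atf4 was at 0.69 with cells thinned to 2000 UMIs and Ppp1r15a at 0.045 in cells at or below the median of fibroblast markers. After thinning, 4 of the 15 high cells had an Atf4 UMI, or 26.7% (7.79 to 55.1) against 18.2% (16.3 to 20.3) of low cells. So few cells cannot tell a change of direction from none. Trib3, with 58 UMIs in the Serpina3n-low and 0 in the Serpina3n-high control cells, has no ratio and is not among the 2. Its interval reached up to 1.91. The share of all genes, in contrast, counts genes with 0 UMIs in the high cells as lower.

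**Figure D4:**
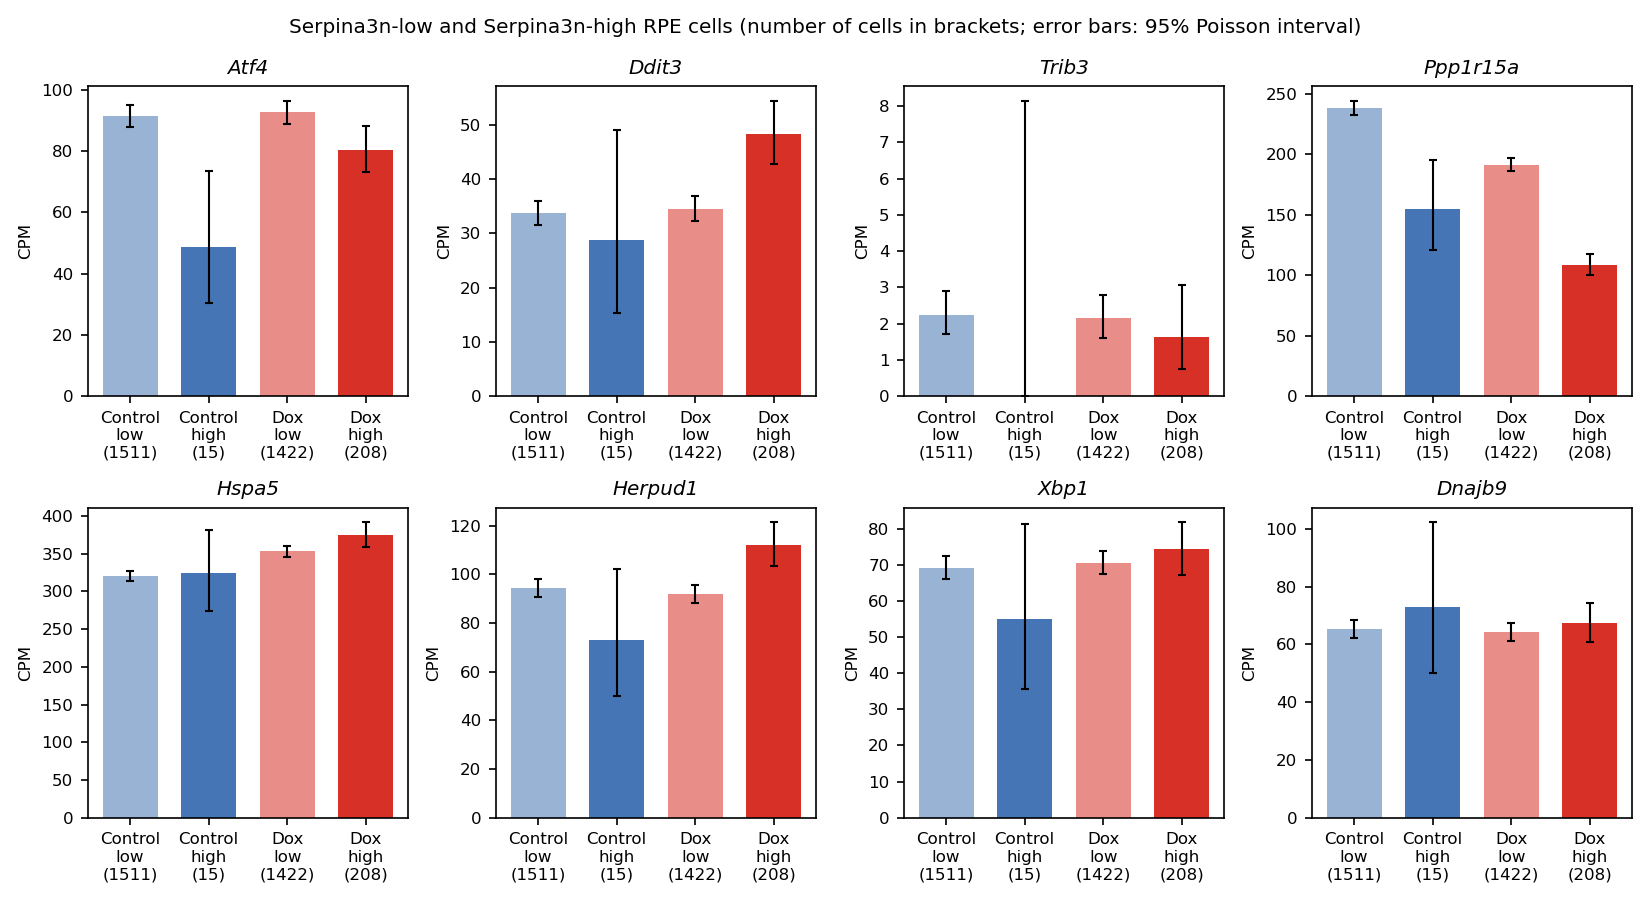
CPM (y axis, linear from 0) of 8 members in Serpina3n-low (pale) and Serpina3n-high (dark) RPE cells of control (blue) and Dox (red), with the number of cells in brackets and 95% Poisson intervals. Ddit3 and Herpud1 are highest in the 208 Serpina3n-high Dox cells, Ppp1r15a is lowest there, and the 15 Serpina3n-high control cells have the widest intervals.

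Other genes of these pathways were taken from lists chosen with earlier results of these data known. Among 14 stress sensors and regulators, 1 was at least 1.5-fold higher in Dox-RPE and 0 lower, beside the 1.66% and 4.92% of all genes, with a median log2 ratio of 0.04. The higher gene was Sesn2, a sensor of leucine that both p53 and ATF4 can induce, at 5.97 CPM in control versus 10.2 CPM in Dox with a log2 ratio of 0.78 (0.50 to 1.06). Eif2ak2 followed, the kinase PKR that senses viral RNA and is induced by interferon, at 19.5 and 27.8 CPM with a ratio of 0.51 (0.35 to 0.67). Eif2ak4 (GCN2, the amino acid sensor), Nfe2l2 (the regulator of antioxidant genes) and Ern1 (IRE1) lay between -0.09 and 0.05 with intervals that held 0. Dnajc3, the inhibitor P58IPK of PERK and PKR, was at 272.3 and 249.7 CPM, a ratio of -0.12 (-0.17 to -0.078).

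Of the ATF4 targets, 34 of the 39 in the table had 50 UMIs, with 2 higher and 2 lower past 1.5-fold, again beside 1.66% and 4.92% of all genes, and a median of -0.0028. Gdf15, a secreted stress hormone that p53 also induces, was at 18.0 CPM in control RPE and 43.2 CPM in Dox-RPE, a log2 ratio of 1.27 (1.11 to 1.42), and Sesn2 was the other higher gene. The lower genes were Nupr1, a stress-induced chromatin protein, at 30.7 and 12.7 CPM with a ratio of -1.28 (-1.45 to -1.10), and Atf3, at 176.0 and 109.0 CPM with a ratio of -0.69 (-0.76 to -0.63). Atf3, also an immediate early gene, was at 36.3 and 30.8 CPM in RPE cells at or below the median of fibroblast markers and at 330.8 and 294.6 CPM above it. In Serpina3n-low cells 0 of the 34 targets were past 1.5-fold higher and 2 were lower, beside 1.05% and 3.87% of all genes there. Gdf15 was there at 17.7 CPM in control versus 23.4 CPM in Dox, a ratio of 0.41 (0.23 to 0.58), and Sesn2 at 5.95 and 8.58 CPM.

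ER chaperones and folding enzymes numbered 21, and 0 were past 1.5-fold in either direction, with a median of 0.02. Beside each count of 0 in this paragraph stand 1.66% higher and 4.92% lower of all genes. In lists this short such counts are descriptions only. Hyou1, a partner of BiP, was the highest at 0.24 (0.059 to 0.42), Canx (calnexin) was at 0.13 (0.072 to 0.18), and Pdia4, a disulfide isomerase, was at -0.14 (-0.22 to -0.058). The 21 genes of ER-associated degradation and transport had 0 past 1.5-fold and a median of 0.02, from Derl3 at -0.49 (-1.01 to 0.028) to Syvn1, the ubiquitin ligase HRD1, at 0.25 (0.054 to 0.44). Of 9 genes of the mitochondrial stress response, 0 were past 1.5-fold, and the median was 0.0089. The lowest was Hspd1 at -0.09 (-0.16 to -0.018) and the highest Lonp1, a matrix protease, at 0.13 (-0.026 to 0.28). The median of the 16 immediate early and dissociation genes was -0.20, with Ier3 at -0.49 (-0.56 to -0.43), Zfp36 at -0.49 (-0.52 to -0.46) and Ier2 at -0.45 (-0.51 to -0.40) at the low end, and the heat shock gene Hspa1a at 0.27 (0.15 to 0.39) at the high end.

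In Serpina3n-high cells, 5 of 13 stress sensors and regulators and 5 of 25 ATF4 targets were past 1.5-fold higher in Dox, and 1 and 3 were lower, beside 16.5% and 10.9% of all genes. The Dox cells held 5566224 UMIs against 452790 in control, so a gene could pass the UMI limit on its Dox UMIs alone. The higher genes named below did so. This limit favours genes high in Dox, also in the share of all genes, and the counts are descriptions only. Of the sensors only 1 interval lay above 0 and 2 lay below. Their median log2 ratio was -0.12, beside 0.01 over all genes. Among the higher sensors, Ern1 and Sesn2 rest on 2 and 3 control UMIs, with intervals that held 0. Gdf15 was at 35.3 CPM in the 15 control cells versus 134.6 CPM in Dox, with a log2 ratio of 1.93 (1.22 to 2.74), Psat1, an enzyme of serine synthesis, had 5 UMIs in control and 202 in Dox (0.47 to 3.35), and Eif2ak2 was at 13.3 and 33.6 CPM (0.19 to 2.81). Among the lower ATF4 targets were Slc1a5, an amino acid transporter, with a ratio of -1.72 (-2.71 to -0.61), and Psph, which completes serine synthesis, with -0.86 (-1.46 to -0.21). Of this list 4 intervals lay above 0 and 4 below. For these counts of intervals no share of all genes was taken. Pdia4 was lower, at 154.6 and 65.9 CPM with a ratio of -1.23 (-1.60 to -0.84), and Hsp90b1, the ER chaperone GRP94, was at 669.2 and 475.4 CPM with a ratio of -0.49 (-0.67 to -0.32). Of 20 ER chaperones 0 were past 1.5-fold higher and 1 was lower. Within the Dox library, high over low, the counts past 1.5-fold were 1 higher and 1 lower of 14 sensors, 2 and 5 of 33 ATF4 targets, 0 and 1 of 21 chaperones, 0 and 0 of 21 degradation genes, and 0 and 0 of 9 mitochondrial genes, beside 4.72% and 20.3% of all genes. Gdf15 was at 134.6 CPM in the Serpina3n-high and 23.4 CPM in the Serpina3n-low Dox cells, a log2 ratio of 2.52 (2.37 to 2.68), and Sesn2 at 17.8 and 8.58 CPM, a ratio of 1.05 (0.69 to 1.40).

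Outside the RPE, 68 pairs of a member and a cell type had 50 UMIs. With Dox, 0 of these pairs were at least 1.5-fold higher and 4 were at least 1.5-fold lower, beside 3.92% and 5.33% of all genes summed over the 10 types. The 4 were Atf4 in melanocyte-like cells, at 171.0 CPM in control versus 112.0 CPM in Dox, Ppp1r15a in the same cells, at 748.9 and 488.7 CPM, Ppp1r15a in the fibroblast-like cells led by Sfrp4, at 843.6 and 503.3 CPM, and Atf4 in Schwann-like cells, at 316.6 CPM (61 UMIs) and 131.2 CPM (15 UMIs). The melanocyte-like cluster had a median of 939 UMIs per cell, and the hemoglobin gene Hbb-bs came first among its leading genes. These cells also differed in marker RNA, the RPE markers being at 37584 and 64143 CPM, their own melanocyte markers at 40580 and 28199 CPM, the fibroblast markers at 7005 and 4182 CPM and the immediate early and dissociation genes at 22086 and 14076 CPM. The part of these in the lower Atf4 and Ppp1r15a was not tested. Over the types the log2 ratio of Ppp1r15a ran from -0.75 (-0.96 to -0.54) in the cells led by Sfrp4 to 0.06 (0.025 to 0.086) in those led by Cxcl10, and was -0.016 in those led by Myoc. It was below 0 in 9 of the 10 types, with an interval that held 0 in Schwann-like cells and in the unnamed cells led by Snhg7os. In the fibroblast-like cells led by Myoc, Ddit3 was at 72.4 CPM in control versus 82.7 CPM in Dox, Herpud1 at 206.3 and 223.5 CPM, and Atf4 at 305.7 and 287.8 CPM.

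Across 24 groups of cells, namely 12 groups in each library with Serpina3n-low and Serpina3n-high RPE cells apart, the genes whose log2(CPM + 1) was most like that of Atf4 were Grasp, Ier3 and Ier5, with Pearson's r of 0.94, 0.92 and 0.91. For Ddit3 they were 1810030O07Rik, Cmpk2 and Scarb2 (0.88, 0.87 and 0.87), and for Hspa5 they were Fndc3a, Samhd1 and Tmem39a (0.91, 0.90 and 0.90). Among the members, Atf4 was most like Xbp1 (0.85) and Ppp1r15a (0.79). The groups of 1 library share its depth and free RNA, and these correlations are descriptions.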

How the data were processed

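The authors deposited raw UMI counts per gene and cell, made with Cell Ranger 4.0.0 per the file headers on mm10, and the annotation version is not given in the sources used here. Cells were kept with over 500 UMIs, over 200 and under 6000 genes, complexity over 0.8 and a mitochondrial share under 0.2. Clusters came from Seurat 5.3.0 (sctransform 0.4.2, 3000 features, 40 components, resolution 0.1) and were named from fixed markers by a rule set after the clusters were seen. Doublets stayed in, and Scrublet (scanpy 1.11.5) served for an alternative only. That alternative left out the 3258 control and 1904 Dox cells with the highest scores, numbers set by expected doublet rates of 16.1% and 12.3%. Scrublet's own threshold, which called 1941 control and 0 Dox cells, was not used. Counts were summed over each cell group of a library. Levels have exact Poisson intervals, ratios exact conditional binomial ones and shares Clopper-Pearson ones, all at 95% (scipy 1.17.1). A gene was called past 1.5-fold where both sides together held at least 50 UMIs. The scripts were tested on simulated data. All members were named, and of each list the 3 highest and 3 lowest genes with 50 UMIs could be named. Members and lists were chosen with earlier results of these data known. In all 18 alternatives were tried, and the split into UMI tertiles and the cells above the median of fibroblast markers were added after seeing the data. Cells are not replicates, and with 1 library per group no p-value is given.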

Additional observations from a re-analysis of the deposited data

How the results depend on the processing

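Of the 18 alternatives, 14 bear on the members' ratios, and the others changed the fold or the UMI limit. Of the ratios 443 stayed within their counting interval, 58 moved beyond it and 6 turned. A ratio is called turned where its interval did not hold 0 and its sign changed. Ratios with an interval that held 0 changed sign too without being counted as turned. Examples are Ddit3 in Serpina3n-high cells, Dox over control, down to -0.04, and Dnajb9, high over low in Dox, down to -0.38. Over all RPE cells the log2 ratio of Ppp1r15a ran from -0.61 (RPE-like cluster) to -0.09 (at least 5 Rpe65 UMIs), and that of Hspa5 from 0.13 to 0.30. Turned ratios were Ppp1r15a in Serpina3n-low cells, Dox over control, at 0.067, and Hspa5, high over low in Dox, at -0.071 (both at least 5 Rpe65 UMIs), Ppp1r15a in Serpina3n-high cells at 0.24 without the highest Scrublet scores, Ppp1r15a high over low at 0.10 in Dox and 0.045 in control with fibroblast markers at or below the median, and Atf4 high over low in control at 0.69 with cells thinned to 2000 UMIs. The thinned value of Atf4 rests on the 4 of 15 Serpina3n-high control cells that still had an Atf4 UMI. The causes were not tested. Ddit3, high over low in Dox, ran from 0.08 (thinned) to 0.72.

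Counts of members past the fold moved as follows, a looser fold being the limit below 1.5-fold. The share of all genes at the same setting is not set beside these counts. They show only how the calls depend on the setting and are no result about the members. Over all RPE cells, 1 was lower at a looser fold and 1 in the RPE-like cluster. In Serpina3n-high cells, Dox over control, 0 were higher at 2-fold, 1 with the Serpina3n limit at 500 CPM and 0 thinned, and 1 was lower at a looser fold, 1 at 500 CPM and 1 thinned. High over low in Dox, 1 was higher at a looser fold, with fibroblast markers at or below the median, with at least 20 Rpe65 UMIs and after centring, and the lower count was 2 at a looser fold and 0 at 2-fold, with fibroblast markers at or below the median, in the RPE-like cluster and with at least 20 Rpe65 UMIs. High over low in control, 1 was higher when thinned. The lower count, which leaves out Trib3 at 0 UMIs, was 4 at a looser fold and 0 at 2-fold. It was 1 with fibroblast markers at or below the median, at 500 CPM, after centring and when thinned. In the other types, 2 pairs were higher at a looser fold and 1 when thinned, and 8 were lower at a looser fold, 1 at 2-fold and 2 without the 100 most abundant genes, after centring, by the mean of the cells' own CPM and without the highest Scrublet scores.

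No paired analysis was possible because each group has 1 library, and none could be left out. Depth limits Trib3, Asns and Chac1 in RPE and every member in the 15 Serpina3n-high control cells.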
